A study of Mus musculus with 9 samples.

Results

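The genes described here are 36 genes that answer interferon or carry its signal: interferon regulatory factors and Stat2, sensors of foreign RNA, antiviral effectors, the Isg15 system and the immunoproteasome subunits. They were chosen by symbol, and each of the 36 stood on 1 row of a table of 23309 symbols. Of the 36, 26 reached 1 FPKM (fragments mapped to a transcript, scaled to its length and to the fragments mapped in the library) in at least 3 of the 9 libraries and were tested, among 9788 genes tested in all. RNA came from podocytes, which form the filtration slits of the kidney glomerulus, in a study of podocyte injury. The mice were wildtype, aged 7 to 8 weeks, of the strain labelled mTmG-Nphs2cre, in which Cre expressed from a podocyte promoter switches the reporter to green fluorescent protein, and GFP-positive cells were used in every group. The PBS group received PBS, the day 9 group (ADR_D9) was sampled 9 days and the day 14 group (ADR_D14) 14 days after an injection that the labels abbreviate as ADR, with 3 libraries each. Nothing in the labels tells whether replicates were different mice. Y-linked transcripts summed to 53.6, 1.06 and 0.018 FPKM in ADR_D9 and to 0.126, 70.5 and 0 in ADR_D14. Neither ADR group thus holds only repeats of 1 sample. A p-value here reflects spread among 3 libraries a group, which for PBS (Y-linked sums of 53.7 to 59.3) may be technical.

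Interferons bind receptors on the cell surface whose partner kinases, of the Janus family, phosphorylate STAT proteins. Type I interferon sends a complex that holds Stat2 and Irf9 to the interferon-stimulated response element, and interferon gamma sends STAT dimers to the gamma-activated site. The genes so induced detect, bind or degrade viral RNA, modify proteins with Isg15, and exchange the catalytic proteasome subunits for those of the immunoproteasome. Glomerular cells carry the receptors, and interferon is known as a cause of glomerular injury.

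The promoter sequences that follow show the letters that interferon-activated factors are known to read. RefSeq promoter windows (GRCm38.p6, 250 bases before to 50 after a gene's start) were at hand for 30 of the 36 members, and Dhx58, Mx1, Mx2, Oas2, Parp14 and Usp18 had none. The core of the response element, GAAA, any 2 bases and GAAA again, on either strand (TTTC on the other), was found in windows of 14 of the 30 members (46.7%) and of 3.99% of 27025 symbols. The core of the gamma-activated site, TTCNNNGAA, which is its own reverse complement, was found in 10 of the 30 (33.3%) and in 9.55% of all symbols. These are matches of letters, not measured binding, and a window without a match says only that the letters are not in it. Capitals mark the matches, overlapping ones as 1 run, and each sequence is written 5′ to 3′ on the gene's own strand. Ddx58, Ifit3, Ifit1, Isg15, Oas1a and Gbp2 are shown for the response element, and Irf1 and Psmb8, the members with the highest levels, for the gamma-activated site.
Ddx58, chr4:40239814-40239848, minus strand: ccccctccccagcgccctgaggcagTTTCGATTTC
Ifit3, chr19:34583348-34583441, plus strand: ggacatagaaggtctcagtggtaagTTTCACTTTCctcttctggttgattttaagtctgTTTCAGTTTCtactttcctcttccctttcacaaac
Ifit1, chr19:34640760-34640838, plus strand: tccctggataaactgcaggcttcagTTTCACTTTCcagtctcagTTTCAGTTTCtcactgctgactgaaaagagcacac
Isg15, chr4:156200850-156200921, minus strand: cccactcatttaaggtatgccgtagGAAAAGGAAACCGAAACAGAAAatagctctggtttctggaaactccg
Oas1a, chr5:120907526-120907570, minus strand: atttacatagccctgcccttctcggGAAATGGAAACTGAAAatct
Gbp2, chr3:142620579-142620638, plus strand: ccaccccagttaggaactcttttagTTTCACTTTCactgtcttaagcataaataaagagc
Irf1, chr11:53769899-53769957, plus strand: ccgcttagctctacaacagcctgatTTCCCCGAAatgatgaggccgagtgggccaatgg
Psmb8, chr17:34198073-34198131, plus strand: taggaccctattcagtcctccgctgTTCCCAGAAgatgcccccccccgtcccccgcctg
The windows of Ifit3, Ifit1 and Oas1a hold 2 response element matches each and that of Isg15 holds 3, while those of Ddx58 and Gbp2 hold 1. In Ddx58 the match lies just after the start of the gene, and in the other 5 it lies upstream.

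The interferon response genes shared no direction of change after ADR. On day 9 no member passed the test. On day 14 the RNA sensor Ddx58 was lower than under PBS and than on day 9, and Ifi35 was higher than on day 9. These were the calls among 26 members, a smaller share than among all genes in both comparisons with day 14. The widest differences were between libraries of 1 group: ADR_D9 replicate 1 held the lowest value of 13 tested members, and ADR_D9 replicate 3 the highest of 11.

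ADR_D9 replicates 1 and 3, and ADR_D14 replicate 1, also stood apart in other ways. Summed over 29 leukocyte markers, FPKM was 1680 in ADR_D9 replicate 3 and 2581 in ADR_D14 replicate 1, against 8.78 to 92.6 elsewhere. In these 2 libraries 14 and 16 of the 29 reached 1 FPKM and exceeded 4 times the highest PBS library, as did 17 and 16 of 18 endothelial markers, and in the other ADR libraries none of the 29 leukocyte markers did. Ptprc, which marks all leukocytes, was at 7.88 and 7.05 FPKM there and at most at 0.0912 elsewhere, whereas Coro1a stayed at or below 0.0859 in all 9. Of the 29 markers, 1 was listed at 0 in ADR_D9 replicate 3 and 8 in ADR_D14 replicate 1. ADR_D9 replicate 1 had the highest sum of podocyte markers, 10246 FPKM, and of red cell markers, 548 FPKM. Transcripts of the Y chromosome were at or below 1.06 FPKM in sum in ADR_D9 replicates 2 and 3 and ADR_D14 replicates 1 and 3. In the other 5 libraries, all those of PBS among them, they summed to between 53.6 and 70.5. Podocyte markers summed to 4418 to 10246 FPKM in the PBS libraries and on day 9 and to 1419 to 2218 on day 14, and in such bulk samples fewer cells of a type and less RNA per cell cannot be told apart. Estimated depth relative to PBS replicate 2 was 0.239 to 0.569 on day 14 and 0.786 to 1.09 elsewhere.

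**Figure D1:**
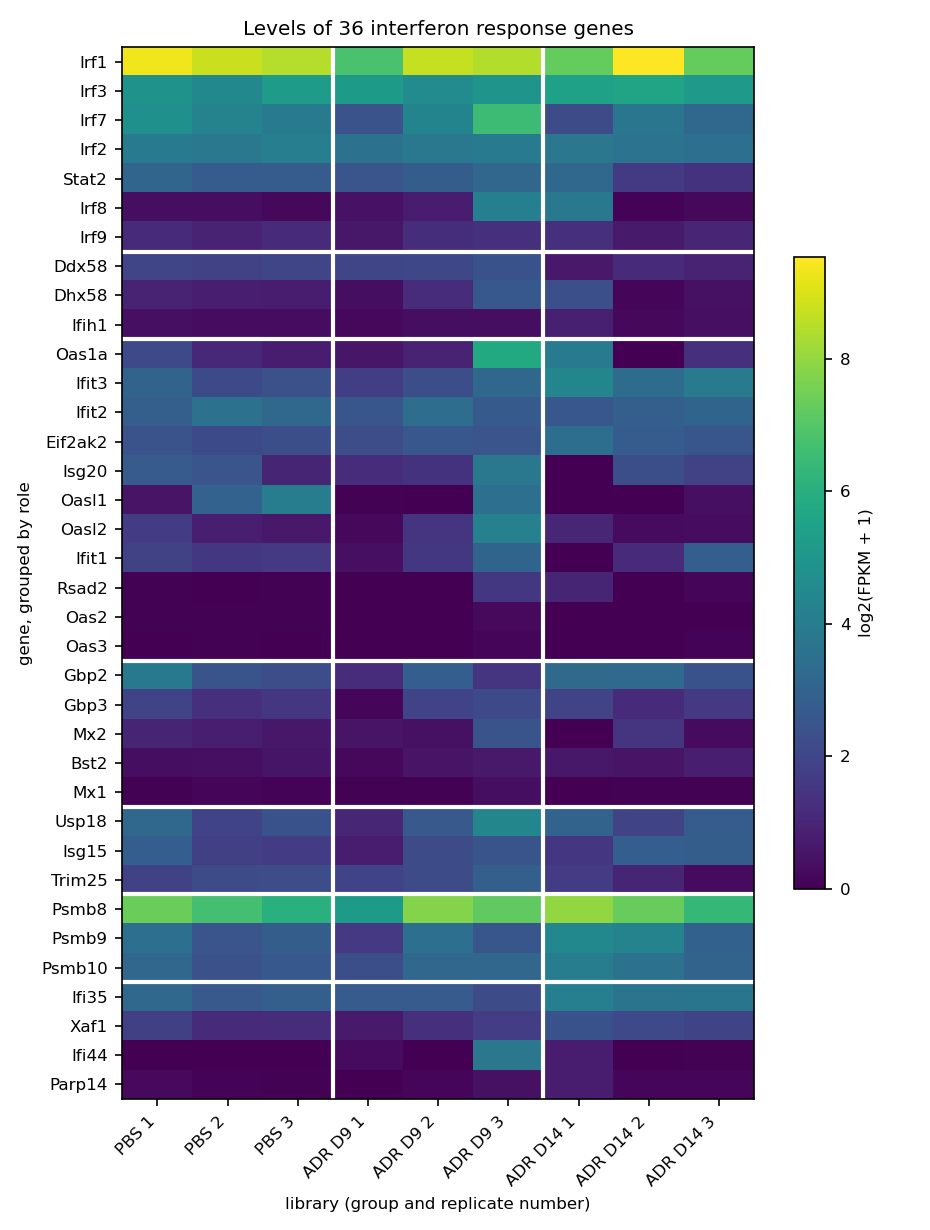
Level of each of the 36 genes (rows, grouped by role with white lines, highest mean first) in each of the 9 libraries (columns), as log2(FPKM + 1) by colour. Irf1 and Psmb8 are the brightest rows, the column of ADR_D9 replicate 1 is dark across many rows, and Irf8, Oas1a, Oasl2 and Ifi44 are bright in ADR_D9 replicate 3.

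Levels of the members ranged from 740 FPKM to values listed at 0. FPKM is scaled to length, so levels can be set side by side. Irf1 had the highest mean over the 9 libraries, 372 FPKM, followed by Psmb8 with 136, Irf3 with 33.0, Irf7 with 21.8, Irf2 with 12.7 and Psmb9 with 9.33. Ranges over libraries overlapped for every pair of neighbours in this order. Within libraries, Irf1 was above Psmb8 except in ADR_D14 replicate 1, and Psmb8 was above Irf3 in all. Irf3 was above Irf7 except in ADR_D9 replicate 3, and Irf2 above Psmb9 except in ADR_D14 replicates 1 and 2. Irf7 and Irf2 had no fixed order. Of the 10 members that were not tested, Ifih1, Oas2, Oas3, Mx1, Bst2 and Parp14 stayed under 1 FPKM in every library. Rsad2 and Ifi44 reached it in 1 library and Irf8 and Mx2 in 2. Ribosomal RNA was depleted before sequencing, and reads on several near-identical genes (the Ifit, Oas and Gbp families) may have been divided between them, so levels within those families are uncertain.

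The transcription factors came first in level and showed no call in any comparison. Irf1, the factor that interferon gamma induces most directly, was at 638, 435 and 356 FPKM in PBS replicates 1 to 3. The day 9 libraries had 110, 416 and 341, and those of day 14 had 154, 740 and 156. The lowest value of all lay on day 9 and the highest on day 14, so the groups overlapped. Changes are given on the log2(FPKM + 1) scale as the difference minus that of the median gene, and each p-value tests the difference before that subtraction. For Irf1 the change from PBS was -0.92 ± 0.691 (SE) on day 9 and -0.68 ± 0.691 on day 14 (limma, adjusted p = 0.9999 and 0.43).

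Irf3, which is activated without new synthesis once foreign nucleic acid is sensed, was at 28.7, 21.1 and 36.1 FPKM in the PBS libraries and at 35.5, 23.5 and 29.2 on day 9. On day 14 it was at 42.9, 46.2 and 34.0, of which 2 values lay above all the others, and the change from PBS was 0.67 ± 0.266 (adjusted p = 0.198). Irf2, which competes with Irf1 for the same sites, ran from 10.3 to 15.7 FPKM over all 9 libraries. Its values on day 14 (12.6, 11.5 and 10.3) lay just below those under PBS (13.8, 12.9 and 15.7), with a change of -0.13 ± 0.214 (adjusted p = 0.388).

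Irf7, which amplifies type I interferon production, varied most among the abundant factors. With PBS it was at 26.6, 18.2 and 13.8 FPKM, on day 9 at 4.49, 18.9 and 90.6, and on day 14 at 3.55, 12.3 and 8.04. All day 14 values lay below all PBS values, and the change was -1.14 ± 0.889 (adjusted p = 0.338). Against day 9 the change was -1.18 ± 0.889 (adjusted p = 0.294), and it was 0.25 without ADR_D9 replicate 3 and ADR_D14 replicate 1. The value of 90.6 belongs to ADR_D9 replicate 3, a library high in leukocyte, endothelial and distal tubule markers. The part of those transcripts in it was not tested.

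Stat2 and Irf9, partners in the type I complex, were lower in level. Stat2 was at 7.55, 5.91 and 5.79 FPKM in the PBS libraries, at 4.64, 6.04 and 7.80 on day 9, and at 8.40, 2.11 and 1.61 on day 14. Replicate 1 of day 14 was the highest of all libraries and the other 2 of that group the lowest, and the change from PBS was -0.65 ± 0.464 (adjusted p = 0.256). Without ADR_D9 replicate 3 and ADR_D14 replicate 1, which leaves 2 libraries in each ADR group, it was -1.205 ± 0.231 and passed the test (adjusted p = 0.0144). That fit drops the value of 8.40, so the pass rests on its removal. Irf9 ran from 0.527 to 1.46 FPKM in all libraries, and its change was -0.06 on day 9 and 0.07 on day 14 (adjusted p = 0.9999 and 0.862). Its exons overlap those of Rnf31 on the same strand, so some of its reads may belong to that gene. Irf8, a factor of myeloid cells, reached 16.5 FPKM in ADR_D9 replicate 3 and 13.4 FPKM in ADR_D14 replicate 1, with no more than 0.672 in the other 7 libraries. These are the 2 libraries high in leukocyte, endothelial and distal tubule markers.

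Among the sensors of foreign RNA, Ddx58 gave the clearest separation of groups. It encodes RIG-I, a helicase that recognises viral RNA ends. It was at 2.94, 2.72 and 3.0 FPKM in the PBS libraries, at 3.0, 3.14 and 4.30 on day 9, and at 0.583, 1.24 and 0.878 on day 14. The day 14 values lay below every other library, and the highest of them was less than the lowest of the others by more than the SD of any group (0.144, 0.715 and 0.331, n = 3 each). Relative to the median gene the change on day 14 was -0.90 ± 0.229 from PBS (adjusted p = 0.0211) and -1.02 ± 0.229 from day 9 (adjusted p = 0.0141), and both passed the test. The call against PBS was lost when any of the 3 PBS libraries was left out, with the change between -0.94 and -0.85 and adjusted p from 0.0501 to 0.0947, and that against day 9 without ADR_D9 replicate 3 (-0.95, adjusted p = 0.0535). Without the 2 libraries high in leukocyte markers, ADR_D9 replicate 3 and ADR_D14 replicate 1, the change was -0.75 ± 0.192 from PBS (adjusted p = 0.0212) and -0.80 from day 9 (adjusted p = 0.0331). Leaving out a library moved the calls over all genes too. Against PBS they fell from 1670 to 1121, 0 and 150 without PBS replicates 1, 2 and 3. Against day 9 they fell from 1536 to 381 without ADR_D9 replicate 3.

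The other sensors were near or below 1 FPKM. Dhx58, the regulator LGP2, was at 0.901, 0.757 and 0.699 under PBS, at 0.281, 1.33 and 5.17 on day 9, and at 4.02, 0.137 and 0.332 on day 14. Its high values fell in ADR_D9 replicate 3 and ADR_D14 replicate 1, as for Irf8, and its change from PBS was 0.53 on day 9 and 0.29 on day 14 (adjusted p = 0.9999 and 0.897). Ifih1, which encodes the sensor of long duplex RNA MDA5, did not exceed 0.766 in any library.

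Of the 11 effectors that act on RNA, 8 were tested and none passed in any comparison. Ifit3, which stabilises the capture of foreign RNA by Ifit1, was at 7.25, 3.36 and 4.11 FPKM in the PBS libraries and at 2.43, 3.95 and 8.02 on day 9. On day 14 it was at 19.5, 9.23 and 13.8, all above every other library, and the change was 1.51 ± 0.435 from PBS (adjusted p = 0.063) and 1.66 ± 0.435 from day 9 (adjusted p = 0.0543). Ifit1 itself, which binds RNA without the host's cap methylation, was at 2.57, 1.90 and 1.97 under PBS, at 0.30, 1.92 and 7.43 on day 9, and on day 14 was listed at 0 in replicate 1 and at 1.24 and 6.12 in the others. The spread within both ADR groups thus exceeded that between groups, and the change on day 14 was -0.17 ± 0.792 (adjusted p = 0.805). Ifit2, a partner in the same complex, ran from 4.91 to 10.9 FPKM with overlapping groups. The 3 Ifit genes lie in 1 cluster, and the response element core was found in the windows of Ifit1 and Ifit3 but not in that of Ifit2.

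Eif2ak2, the kinase PKR that halts translation when it binds duplex RNA, was at 4.47, 3.36 and 3.93 FPKM in the PBS libraries and at 9.80, 5.80 and 4.80 on day 14, with day 9 between 3.73 and 5.0. The day 14 values lay above those under PBS by a narrow margin, and the change was 0.77 ± 0.289 (adjusted p = 0.166). The oligoadenylate synthetases, which make the messenger that activates RNase L, gave the most extreme single libraries. Oas1a reached 54.6 FPKM in ADR_D9 replicate 3 and 14.2 FPKM in ADR_D14 replicate 1, with no more than 3.34 elsewhere. Oasl2, a related protein, was at 16.9 in ADR_D9 replicate 3 and at most at 2.22 elsewhere.

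Oasl1, known in mice to restrain translation of Irf7, was at 0.401, 6.96 and 15.5 FPKM in the PBS libraries and at 0.0461, 0 and 10.2 on day 9. On day 14 it was listed at 0 in 2 libraries and at 0.319 in the third. All day 14 values lay below all PBS values, which themselves spread widely, and the change was -2.23 ± 1.1 (adjusted p = 0.155). Isg20, an RNA exonuclease, ran from 0.982 to 5.64 in 7 libraries, was at 13.1 in ADR_D9 replicate 3 and was listed at 0 in replicate 1 of day 14. Rsad2, which encodes viperin, was at 1.92 and 0.975 in ADR_D9 replicate 3 and ADR_D14 replicate 1 and at most at 0.102 elsewhere.

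Of the GTPases and membrane effectors, the guanylate-binding proteins Gbp2 and Gbp3, which attack the vacuoles of intracellular microbes, were tested, and neither passed. Gbp2 was at 13.6, 4.62 and 3.79 FPKM in the PBS libraries, at 1.34, 6.14 and 1.75 on day 9, and at 8.79, 8.50 and 4.29 on day 14. Its lowest value lay in ADR_D9 replicate 1, and its change from PBS on day 9 was -1.07 ± 0.557 (adjusted p = 0.9999). Gbp3 had its lowest value, 0.127, in the same library and lay between 1.2 and 3.28 in the other 8. Mx2, a dynamin-like antiviral GTPase, reached 4.60 in ADR_D9 replicate 3 and 1.67 in ADR_D14 replicate 2, while Mx1 and the tethering protein Bst2 stayed under 1.

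The Isg15 system showed no call either. Isg15, the ubiquitin-like modifier, was at 6.22, 2.46 and 2.16 FPKM in the PBS libraries, at 0.642, 3.62 and 4.56 on day 9, and at 1.85, 6.17 and 6.02 on day 14. Every group held both low and high libraries, and the change from PBS was -0.34 ± 0.575 on day 9 and 0.43 ± 0.575 on day 14 (adjusted p = 0.9999 and 0.75). Usp18, which removes Isg15 and dampens the type I receptor, was at 19.9 in ADR_D9 replicate 3 and between 1.02 and 8.31 elsewhere. Trim25, the ubiquitin ligase that activates RIG-I, was at 2.69, 3.67 and 3.77 under PBS, at 2.75, 3.55 and 6.39 on day 9, and at 2.20, 1.0 and 0.217 on day 14. All day 14 values lay below all others, and the change was -0.99 ± 0.395 from PBS and -1.12 ± 0.395 from day 9 (adjusted p = 0.0798 and 0.0513). Without ADR_D9 replicate 3 and ADR_D14 replicate 1, and so with 1 library fewer in each ADR group, Trim25 passed in both (-1.31 ± 0.277 from PBS, adjusted p = 0.0172, and -1.22 from day 9, adjusted p = 0.034). Ddx58 and its activating ligase thus had their lowest 3 values in the same 3 libraries, those of day 14. Of all genes tested, 23.8% lay wholly below PBS and 24.6% wholly below day 9 there, so this is not read as particular to the pair.

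**Figure D2:**
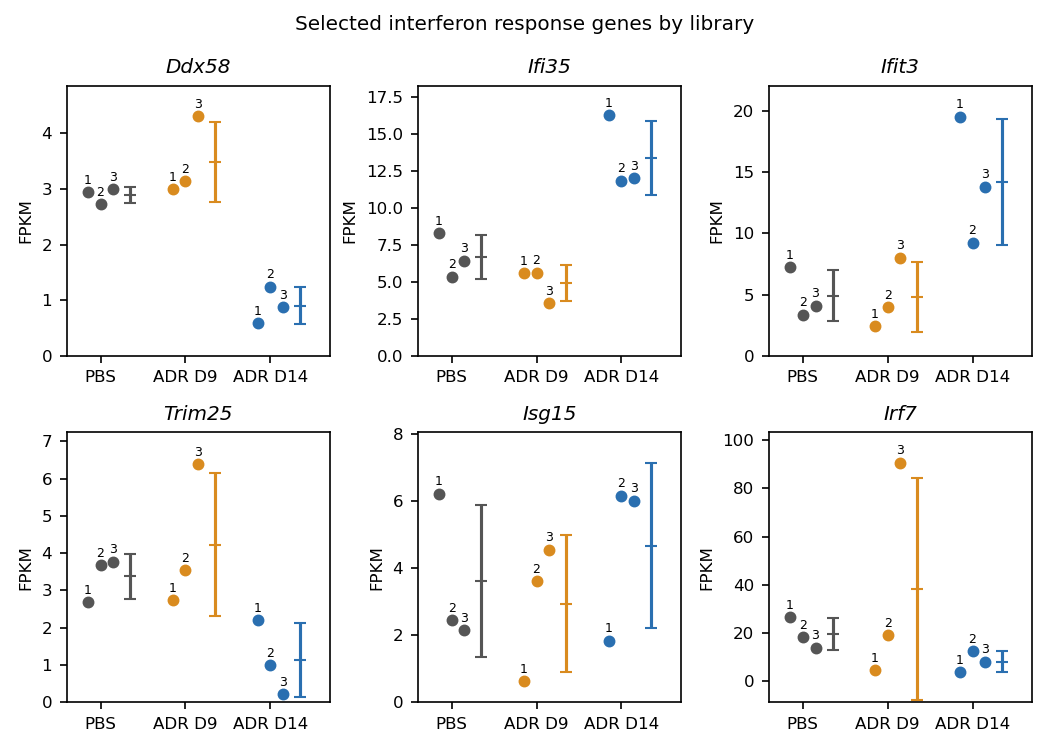
FPKM of Ddx58, Ifi35, Ifit3, Trim25, Isg15 and Irf7 in each library (points, numbered by replicate) for PBS (grey), ADR_D9 (orange) and ADR_D14 (blue), with the mean and SD of each group (n = 3) beside the points. The day 14 points of Ddx58 and Trim25 lie below, and those of Ifi35 and Ifit3 above, all points of the other groups, while Isg15 overlaps and Irf7 is spread by 1 value of 90.6.

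The immunoproteasome subunits had their highest means on day 14, with overlapping groups and no call. Psmb8 was at 167, 101 and 64.8 FPKM in the PBS libraries, at 35.8, 216 and 146 on day 9, and at 255, 158 and 80.4 on day 14. Its change from PBS on day 14 was 0.66 ± 0.692 (adjusted p = 0.626), within the spread of each group. Psmb9 was at 10.1, 4.68 and 6.09 under PBS, at 1.99, 10.3 and 4.84 on day 9, and at 21.0, 18.2 and 6.71 on day 14, with a change of 1.1 ± 0.566 from PBS and 1.57 ± 0.566 from day 9 (adjusted p = 0.265 and 0.13). Psmb10 was at 7.85, 4.21 and 5.10 under PBS, at 3.91, 7.79 and 7.79 on day 9, and at 15, 10.6 and 7.17 on day 14, with a change of 0.96 ± 0.368 from PBS (adjusted p = 0.155). In all 3 genes, ADR_D9 replicate 1 was the lowest and ADR_D14 replicate 1 the highest of the 9 libraries.

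The standard subunits that they replace were measured as well. Psmb8 takes the place of Psmb5, whose levels were 745, 793 and 736 FPKM in the PBS libraries, 555, 747 and 592 in those of day 9, and 415, 617 and 425 in those of day 14. The ratio of Psmb8 to Psmb5 was 22.4%, 12.8% and 8.80% under PBS, 6.45%, 29.0% and 24.6% on day 9, and on day 14 it reached 61.4%, 25.7% and 18.9%. The standard subunit thus stayed the more abundant in every library, and the ratios of the 3 groups overlapped. Psmb9 replaces Psmb6, and their ratio lay between 0.576% and 4.32%, with both ends on day 14. Psmb10 replaces Psmb7, with a ratio of 13.7% to 35.2%, both ends on day 9. Exons of Psmb9 and Tap1 overlap on opposite strands and those of Psmb8 overlap an antisense gene, and no use of strand is recorded, so reads of these pairs cannot be told apart.

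Of the remaining members, Ifi35 stood out. Its product forms a complex with that of Nmi in the cytoplasm of interferon-treated cells. It was at 8.27, 5.36 and 6.43 FPKM in the PBS libraries, at 5.59, 5.62 and 3.56 on day 9, and at 16.2, 11.8 and 12.0 on day 14. Each day 14 value exceeded all the others, and the change was 1.5 ± 0.273 from day 9 (adjusted p = 0.0194), which passed, and 1.05 ± 0.273 from PBS (adjusted p = 0.0521), which did not. Leaving out ADR_D9 replicate 1 or 3 ended the call against day 9 (1.61 and 1.27, adjusted p = 0.0535 and 0.0679). Over all genes 497 and 381 passed in those fits, against 1536 with every library. Exons of Ifi35 overlap an antisense gene. Xaf1, an antagonist of the apoptosis inhibitor XIAP, lay between 2.90 and 4.24 FPKM on day 14 against 1.27 to 2.5 under PBS and 0.603 to 2.29 on day 9. Its change was 0.90 ± 0.319 from PBS and 1.13 ± 0.319 from day 9 (adjusted p = 0.134 and 0.0809). Ifi44 was at 12.8 in ADR_D9 replicate 3 and at most at 0.646 elsewhere.

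Over the comparison of day 9 under PBS, 0 of the 26 tested members passed limma's test and 0 reached an unadjusted p of 0.05. Over all 9788 genes tested the shares were 0.00% and 3.11% (1.21% lower). The median change of the members was -0.04 relative to the median gene, 11 of 26 lay above it, and values ran from -1.36 (Oasl1) to 1.07 (Oas1a). Ddx58 was the 1 member whose groups did not overlap (3.85% of members against 13.4% of all genes, 6.77% higher and 6.63% lower), with the nearest PBS and day 9 values equal when rounded to 3.0 FPKM. The median was 0.24 without ADR_D9 replicate 1, 0.067 without PBS replicate 1 and -0.34 without ADR_D9 replicate 3, so its sign rests on single libraries.

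Against PBS, 1 of the 26 members passed on day 14, which is 3.85% against 17.1% of all genes tested (6.32% higher and 10.7% lower). At an unadjusted p of 0.05 there were 3 higher members (Ifi35, Ifit3 and Xaf1) and 2 lower (Ddx58 and Trim25), 19.2% against 34.2% (12.8% higher and 21.5% lower). Groups did not overlap for 9 members, 34.6% against 39.4% (15.6% above and 23.8% below): Ifi35, Ifit3, Xaf1 and Eif2ak2 lay above and Ddx58, Trim25, Oasl1, Irf7 and Irf2 below. The median change was 0.17, and 15 of 26 lay above the median gene. By role, all 3 immunoproteasome subunits, both Gbp genes and both of Ifi35 and Xaf1 lay above it, and 4 of 6 transcription factors and 5 of 8 RNA-directed effectors lay below. The median was 0.31 without PBS replicate 1, -0.022 without PBS replicate 2, -0.012 without ADR_D14 replicate 1, -0.043 with the length and GC trend removed and -0.42 with a term for Y-linked transcripts. Without ADR_D9 replicate 3 and ADR_D14 replicate 1, 3 members passed, all lower (Ddx58, Stat2 and Trim25), 11.5% against 22.1% of all genes (8.11% higher and 14% lower).

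Between day 14 and day 9, 2 of 26 members passed (Ifi35 higher, Ddx58 lower), 7.69% against 15.7% of all genes (5.71% higher and 9.98% lower). At an unadjusted p of 0.05 there were 4 higher and 2 lower, 23.1% against 34.4% (12.0% and 22.4%). Groups did not overlap for 5 members, 19.2% against 37.7% (13.2% above and 24.6% below): Ifi35, Ifit3 and Xaf1 above, Ddx58 and Trim25 below. The median change was 0.17, with 16 of 26 above the median gene. It was -0.12 without ADR_D9 replicate 1, 0.37 without ADR_D9 replicate 2, 0.59 without ADR_D9 replicate 3, 0.26 and 0.33 without ADR_D14 replicates 1 and 2, and -0.047 with no filter. Without ADR_D9 replicate 3 and ADR_D14 replicate 1, which leaves 2 libraries in each ADR group, 5 members passed. Ifi35 and Ifit3 were higher (1.15 and 1.76) and Ddx58, Stat2 and Trim25 lower (-0.80, -0.96 and -1.22). That is 19.2% against 13.1% of all genes (4.69% higher and 8.46% lower), and the median was 0.52. The 2 comparisons with day 14 share the day 14 libraries, so they do not support each other independently.

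**Figure D3:**
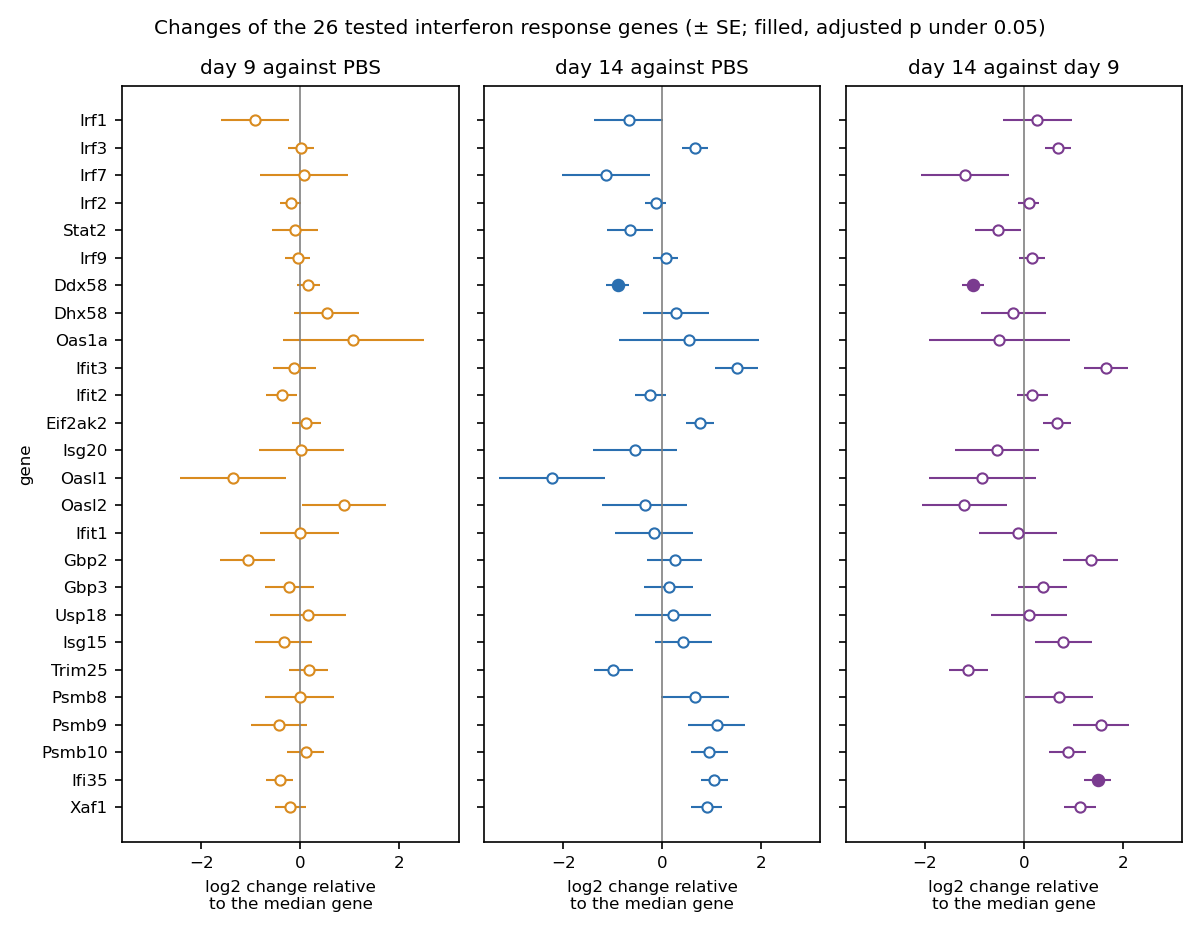
Log2 change of each of the 26 tested members relative to the median gene (points, with SE as bars) for day 9 against PBS, day 14 against PBS and day 14 against day 9, with genes by role from top to bottom. Filled points, Ddx58 in the middle panel and Ddx58 and Ifi35 on the right, have an adjusted p under 0.05, and the bars of Oas1a, Oasl1 and Irf7 are among the widest.

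The libraries differed more than the groups. In ADR_D9 replicate 1, 24 of 26 tested members lay below the PBS mean (45% of all genes did), with a median of -0.74 on the log2(FPKM + 1) scale where all genes had 0.06. It held the lowest of the 9 values for 13 members (50%), against 5.82% of all genes, and its 17 members at 1 FPKM or more were the fewest. In ADR_D9 replicate 3 the median was 0.44, and it held the highest value of 11 tested members (42.3%) against 17.8% of genes. Counting all 36, 18 were highest there and 7 reached 1 FPKM and exceeded 4 times the highest PBS library. Shares of all genes for these counts of the 36 were not computed for any library, so they are not read as particular to the members. ADR_D9 replicate 3 also had the most genes of the whole table at 1 FPKM, 10474 against 8629 to 10086 elsewhere. ADR_D14 replicate 1 held the highest value of 8 tested members (30.8%) against 25.1% of genes and the lowest of 4 (15.4%) against 28.3%, and 3 of the 36 (Irf8, Dhx58 and Oas1a) reached 1 FPKM and exceeded 4 times the highest PBS library, as Rsad2 and Ifi44 did at levels under 1 FPKM. No member did so at 1 FPKM or more in the other 4 ADR libraries, and below that level Ifi44 did in ADR_D9 replicate 1 (0.229 FPKM). ADR_D9 replicate 2 lay close to PBS, with a median of 0.03 and neither the highest nor the lowest value of any tested member, apart from Oasl1, which was listed at 0 there as in 2 of the day 14 libraries. The part of the leukocyte, endothelial, tubule and red cell transcripts in these library differences was not tested.

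**Figure D4:**
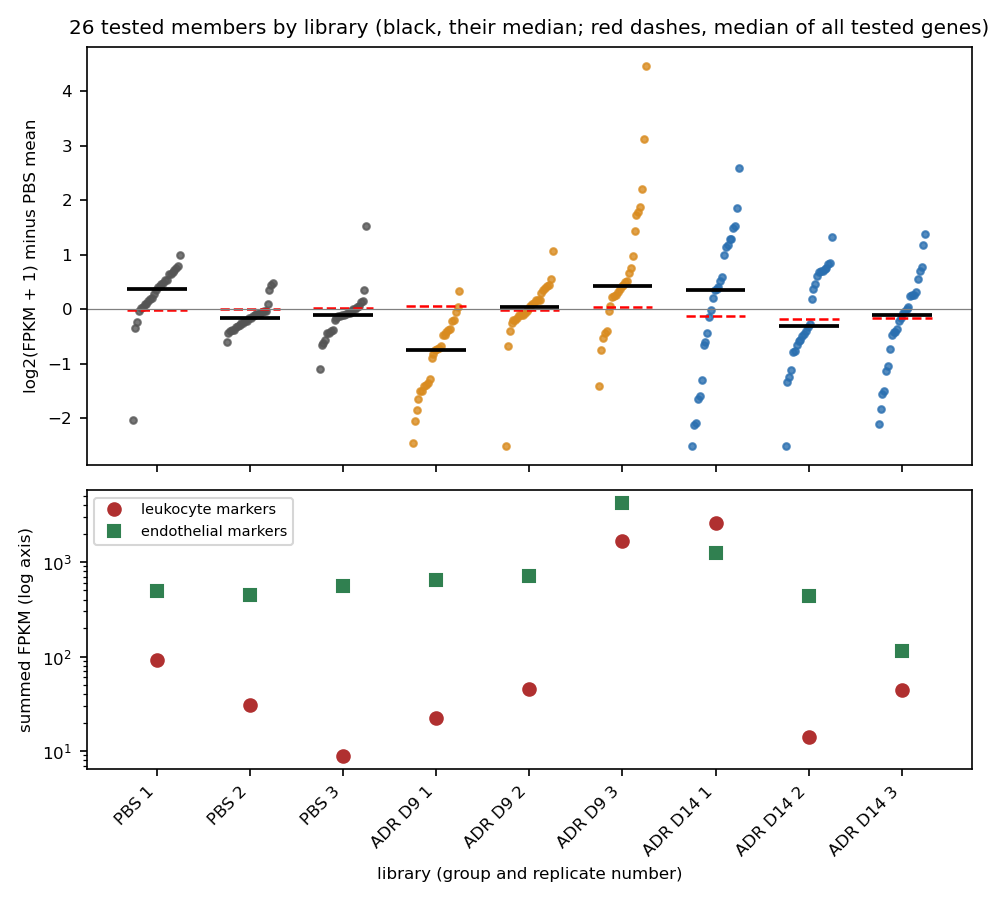
Upper panel, log2(FPKM + 1) of the 26 tested members minus their PBS mean in each library (points), with their median (black line) and that of all tested genes (red dashes). Lower panel, FPKM summed over leukocyte and endothelial markers on a log axis. The members' median is lowest in ADR_D9 replicate 1 (-0.74) and highest in ADR_D9 replicate 3 (0.44), and both marker sums are highest in ADR_D9 replicate 3 and ADR_D14 replicate 1.

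Ligands, receptors and signalling proteins were read from lists of 132 other pathway genes, of which 74 were tested. Interferon genes themselves were hardly seen: Ifna1, Ifna2, Ifna4, Ifna5, Ifnk, Ifne, Ifnl2 and Ifnl3 were listed at 0 in all libraries, and Ifnb1 and Ifng were at most at 0.28 and 0.37 FPKM. The receptor genes that were tested were expressed in every group, whereas Ifnlr1 of the same list stayed at or below 0.466 FPKM in all 9 libraries. Ifngr1, the ligand-binding chain for interferon gamma, was at 45, 57.4 and 81.2 FPKM in the PBS libraries, at 52.4, 83.2 and 60.9 on day 9, and at 6.30, 38.9 and 27.9 on day 14. Its day 14 values lay below all others, and the change from PBS was -1.42 ± 0.576 (adjusted p = 0.0918). Ifngr2, Ifnar1 and Ifnar2 overlapped between groups, with changes of 0.67, -0.40 and 1.16 on day 14 (adjusted p = 0.513, 0.414 and 0.187).

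Of the kinases that these receptors use, Jak1 and Tyk2 were lower on day 14. Jak1, shared by both receptor types, was at 38.3, 36.2 and 37.8 FPKM in the PBS libraries, at 44.2, 32.7 and 47.2 on day 9, and at 18.6, 17.0 and 17.4 on day 14. The day 14 values lay close together and far below the rest, and the change was -0.89 ± 0.204 from PBS and -0.95 ± 0.204 from day 9 (adjusted p = 0.0159 and 0.0129). Tyk2, its partner at the type I receptor, fell as well, from 3.33, 4.69 and 6.59 FPKM in the PBS libraries to 1.83, 0.887 and 0.665 on day 14 (-1.32 ± 0.352, adjusted p = 0.0265). Jak2, which serves interferon gamma, did not pass (-0.28, adjusted p = 0.621). Without PBS replicate 2 or 3 the call of Jak1 against PBS was lost (adjusted p = 0.0819 and 0.0616), and the changes were -0.93 and -0.86. Over all genes 0 and 150 passed in those fits, against 1670 with every library.

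Stat3 fell from 71.0, 85.3 and 59.8 FPKM in the PBS libraries to 19.6, 38.4 and 36.8 on day 14 (-1.06 ± 0.341, adjusted p = 0.0431). Socs3, a feedback inhibitor of Janus kinases, fell from 414, 566 and 352 FPKM to 64.8, 211 and 86.5 (-1.88 ± 0.463, adjusted p = 0.0238). Ptpn11, the phosphatase SHP2, rose (1.35 ± 0.355, adjusted p = 0.0497). Of the 12 kinases, STATs and inhibitors tested, 4 were lower and 1 higher on day 14 than under PBS, 41.7% against 17.1% of all genes (10.7% lower and 6.32% higher). Against day 9, 2 of the 12 were lower and 0 higher, 16.7% against 15.7% of all genes (9.98% lower and 5.71% higher). From PBS to day 14 the other pathway lists gave 0 calls among 5 ligands and receptors, 11 sensing genes and 3 standard proteasome subunits. Among 43 other interferon-induced genes, 1 was higher and 5 lower. Under 22 alternatives of processing, Jak1 passed in 18, Socs3 in 15, Tyk2 in 14, Stat3 in 8 and Ptpn11 in 6. With each of the 9 libraries left out in turn, these genes passed in 7, 6, 5, 3 and 2 fits.

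**Figure D5:**
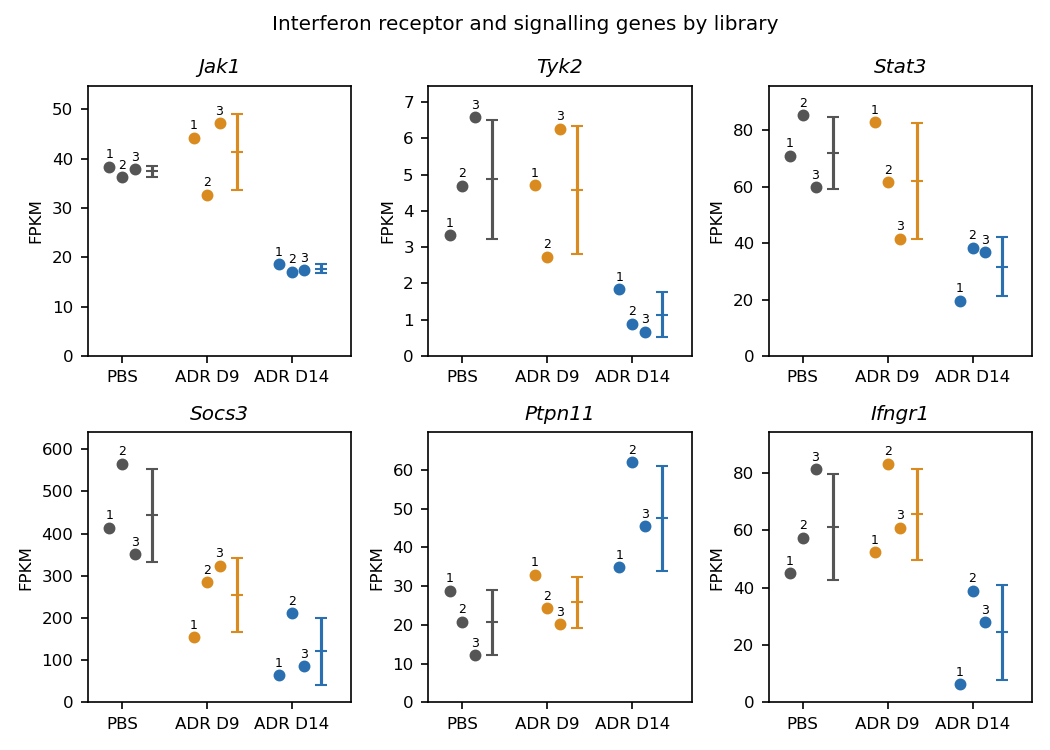
FPKM of Jak1, Tyk2, Stat3, Socs3, Ptpn11 and Ifngr1 in each library (points, numbered by replicate), with the mean and SD of each group (n = 3) beside the points. The 3 day 14 points lie above all PBS points for Ptpn11 and below them in each other panel, and those of Jak1 are between 17.0 and 18.6.

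Over all 74 tested pathway genes, day 9 gave 0 calls against PBS, with Cxcl10 (-1.76) and Ifi204 (-0.97) lower at an unadjusted p of 0.05. Day 14 gave 11 calls against PBS, 2 higher and 9 lower, 14.9% against 17.1% of all genes. The higher were Ptpn11 and Nmi, the partner of Ifi35 (1.45 ± 0.359, adjusted p = 0.0402). The lower were Jak1, Tyk2, Stat3 and Socs3 together with Parp10, Oas1b, Tdrd7, Adar and Irgm2. Adar, the editing enzyme that masks the cell's own duplex RNA, changed by -1.21 ± 0.399 (adjusted p = 0.049), and Irgm2, an immunity-related GTPase, by -1.97 ± 0.625 (adjusted p = 0.0498). Under scaling by median of ratios the 9 calls divided into 4 higher and 5 lower, and with every library brought to a common total all 13 were lower. Over all genes the calls were 859 higher and 766 lower with the former and 417 and 1650 with the latter. No gene of the list passed against PBS with a term for Y-linked transcripts, nor without PBS replicate 2 or 3. Over all genes 0, 0 and 150 passed in these fits.

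Day 14 against day 9 gave 11 calls among the 74 as well, 14.9% against 15.7% of all genes. Ifi204 (1.72 ± 0.4), of the family of DNA-binding interferon-induced proteins, and Ifi30 (1.83 ± 0.441), the lysosomal thiol reductase of antigen processing, were higher. Jak1, Tyk2, Parp10, Tdrd7, Oas1b and Adar were lower, and so were the sensor Tlr7 (-0.97 ± 0.286), the antiviral zinc finger protein Zc3hav1 (-1.37 ± 0.389) and Znfx1 (-1.0 ± 0.33). The count was 2 without ADR_D9 replicate 1 or 3, and 3 without ADR_D9 replicate 2 or PBS replicate 2. Over all genes it fell from 1536 to 497, 381, 625 and 729 in these fits. Under median-of-ratios scaling 5 of 12 calls were higher, and with a common total 1 of 14. Over all genes these were 823 of 1467 and 387 of 2217.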

How the data were processed

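The values are FPKM deposited by the authors in 1 table with a column for each of the 9 libraries, and the 3 columns named control were taken as the PBS samples by their replicate numbers. Per the labels' protocols, RNA of GFP-positive podocytes was depleted of ribosomal RNA. Cufflinks, the build mm9 and Bowtie 0.12.7 appear in the submitters' processing notes. Which annotation was used, whether strand was, and how multiply mapped reads were treated is not given in the sources used here. No counts were used, so depth is known only as a relative estimate from the most frequent ratio between libraries over values under 0.3 FPKM, and no counting interval can be given.

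Of 23813 rows, 1 was kept for each of 23309 symbols (that of the highest mean), and genes with 1 FPKM or more in at least 3 libraries were tested. limma 3.58.1 in R 4.3.3 was fitted with a variance trend on log2(FPKM + 1), all 9 libraries together and the group as the only term, two-sided, with Benjamini-Hochberg adjustment over 9788 genes. From each change the median over all tested genes was subtracted, after the test, which was 0.04, -0.15 and -0.22 for day 9 against PBS, day 14 against PBS and day 14 against day 9. The pseudocount of 1 understates changes of low genes. The fit was tested on simulated data. Promoters were RefSeq (GRCm38.p6) and lengths and exon overlaps GENCODE M21, both of a later build than mm9.

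The members and lists were chosen with earlier results of these data known. The rule for named genes takes the members that passed, the 6 of highest mean, Isg15, Ifit1, Stat2, Irf9, Irf7 and the immunoproteasome subunits, receptors and kinases, and up to 6 pathway genes per comparison and direction. The other members named with values, Adar, Irgm2, Znfx1 and Cxcl10, and the markers were chosen after their values were seen, and 1 gene is not reported here. Alternatives were another pseudocount (0.1), filters, scalings, variance models, samples in the fit, a replicate block, a term for Y-linked transcripts, removal of a length and GC trend, and each library left out.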

Additional observations from a re-analysis of the deposited data

Results flagged for a closer look

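The genes that follow differed between day 14 and day 9 by the test of that difference itself, which is also the difference between their changes from PBS on the 2 days (limma, log2 change on day 14 minus that on day 9, relative to the median gene). Among members these were Ddx58 (-1.02, adjusted p = 0.0141) and Ifi35 (1.5, adjusted p = 0.0194). Among the other pathway genes, those lower on day 14 were Jak1 (-0.95, adjusted p = 0.0129), Parp10 (-0.93, adjusted p = 0.0171), Tdrd7 (-1.32, adjusted p = 0.0208), Tlr7 (-0.97, adjusted p = 0.0281), Zc3hav1 (-1.37, adjusted p = 0.029), Tyk2 (-1.16, adjusted p = 0.0335) and Oas1b (-1.10, adjusted p = 0.0356). So were Adar (-1.25, adjusted p = 0.0411) and Znfx1 (-1.0, adjusted p = 0.04). Higher on day 14 were Ifi204 (1.72, adjusted p = 0.0375) and Ifi30 (1.83, adjusted p = 0.0414). Groups of 3 are too small for a search for outlying libraries.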

How the results depend on the processing

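Of 22 alternatives, 15 left Ddx58 past the test on day 14 against PBS (change -1.41 to -0.75, adjusted p 0.0143 to 0.121) and 19 against day 9 (adjusted p 0.00951 to 0.0556), and 18 left Ifi35 past it against day 9 (1.03 to 1.74, adjusted p 0.0139 to 0.0679). No member or pathway gene passed on day 9 against PBS under any of them. Over all genes that comparison gave 2 calls with no filter, 1 with only the groups compared, 1 without ADR_D14 replicate 2 and 0 otherwise. The number of members past the test on day 14 against PBS, 1 as reported, was 0 with no filter, with only the groups compared, with a term for Y-linked transcripts (when no gene of the table passed) and with the length and GC trend removed. It was 2 with a mean of at least 1 FPKM, quantile normalization or no variance trend, 3 with median-of-ratios scaling, 3 without ADR_D9 replicate 3 and ADR_D14 replicate 1, and 0 to 3 with each library left out. Over all genes the count, 1670 as reported, was 997 of 19046 with no filter and 470 with only the groups compared. It was 582 with the length and GC trend removed, and 0 to 1885 with each library left out. For day 14 against day 9 the member count was 2 as reported and 4 with quantile normalization. It was 0 with only the groups compared or the length and GC trend removed, 5 without those 2 libraries, and 0 to 4 with each library left out. Over all genes the count, 1536 as reported, was 1212 with quantile normalization and 262 with only the groups compared. It was 438 with the length and GC trend removed, and 381 to 2124 with each library left out. The pathway count against PBS, 11 as reported, was 2 with no filter, 6 with a mean of at least 1 FPKM, 7 with quantile normalization, 1 with only the groups compared, 18 without those 2 libraries, 0 with the Y-linked term, 3 with the length and GC trend removed and 0 to 12 with each library left out. Against day 9 it was 11 as reported, 3 with no filter, 6 with a mean of at least 1 FPKM or the Y-linked term, 5 with quantile normalization, 0 with only the groups compared or the length and GC trend removed, and 2 to 12 with each library left out. The causes were not tested.

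With the replicate number as a block, the member counts on day 14 were 1 against PBS and 2 against day 9, and the pathway counts 5 and 7. Over all genes 1301 and 1200 passed in that fit, against 1670 and 1536 without the block. Deviations of same-numbered libraries correlated between -0.27 and 0.43, and those of differently numbered ones between -0.52 and 0.46. Whether the numbers mark a batch or a pairing cannot be told from these ranges. Of 2508 changes of named genes under alternatives, 192 lost a call, 39 gained one and 3 reversed: Ifngr2 on day 14 against PBS (-0.25 with the Y-linked term), and, against day 9, Psmb8 (-0.021 without ADR_D9 replicate 1, the lowest of -0.021 to 1.27 with each library left out) and Irf7 (0.25 without ADR_D9 replicate 3 and ADR_D14 replicate 1). A further 80 changes of sign were of uncalled changes smaller than their SE and were not counted as reversals. The day 14 libraries, of the lowest estimated depth, limit genes near 1 FPKM most, Ddx58 and Trim25 among them.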
